A study of Saccharomyces cerevisiae with 2 samples.

Results

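Among the box H/ACA small nucleolar RNAs (snoRNAs) that were recovered with Rbp95 in yeast, 4 guides of pseudouridines outside the peptidyl transferase center of the ribosome are described here. They are snR86 and snR82, whose target uridines are in the 25S rRNA, and snR83 and snR35, whose target uridines are in the 18S rRNA. These 4 were chosen by name, with earlier results of these data known, among the guides of such sites, of which the list holds 5 others. They are 4 of the 36 RNAs in the deposited snoRNA list of the Rbp95-HTP library. The data come from CRAC, in which a protein and the RNA it touches are joined by UV light in intact cells and the RNA pieces purified along with the tagged protein are sequenced. The Rbp95-HTP strain carries Rbp95 (Ycr016w), an assembly factor of early pre-60S particles, with a C-terminal tag of histidines, a TEV protease site and protein A in the BY4741 background. The control strain had no tag, and its background is BY4741 in the sample labels and BY4742 in the methods. Both cultures were grown with glucose in minimal medium lacking tryptophan to a final OD of 0.6 and crosslinked for 100 s. The design text of the series names another protein, Nap1, so the sample labels were used to assign the tagged library. There was 1 library for each strain, so differences between the strains lack a replicate check.

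A box H/ACA snoRNA folds into hairpins followed by the short H and ACA boxes, and an internal loop in a hairpin, the pseudouridylation pocket, pairs with rRNA on both sides of a single uridine. The snoRNA is bound by Cbf5, the pseudouridine synthase, together with Nop10, Nhp2 and Gar1, and Cbf5 converts the uridine held in the pocket to pseudouridine. Most such guides act in the nucleolus on the nascent pre-rRNA, in the same compartment in which early pre-ribosomal particles form. The uridine guided by snR35 is further modified after its conversion, to the hypermodified base in the decoding region of the small subunit.

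The 7 target uridines are shown first because the rRNA hits below refer to them. Their positions are the established assignments of these guides in yeast and were not derived from the deposited files. Each sequence is the part of the 35S pre-rRNA reference of the deposited pileup that spans 10 nucleotides on either side of the target, 5′ to 3′ and written as DNA, with the target in capitals.
snR86 site: cgcgcatgaaTggattaacga
snR82 site A: tgaagagcttTtagtgggcca
snR82 site B: ctatctactaTctagcgaaac
snR82 site C: atctactatcTagcgaaacca
snR83 site A: cgttcttagtTggtggagtga
snR83 site B: gatggaagttTgaggcaataa
snR35 site: ttaatttgacTcaacacgggg
All 7 positions held a T in the reference, and each of these sequences occurred 1 time in the 35S pre-rRNA.

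Counted along the 35S pre-rRNA, the snR86 site is nucleotide 5565 and the snR82 sites are nucleotides 4361, 5600 and 5602. These 4 uridines lie in the mature 25S rRNA, in which the number of a nucleotide is its 35S position minus 3251. The snR83 sites are nucleotides 1990 and 2115 and the snR35 site is nucleotide 1891. These 3 uridines lie in the mature 18S rRNA, whose numbers are the 35S positions minus 700. snR82 sites B and C are 2 nucleotides apart, and the snR86 site lies 35 nucleotides upstream of snR82 site B, so the values at these 3 sites are not independent of each other. Placed on the annotated RDN37-1 unit of the R64 assembly, on the minus strand, the printed stretches lie at chrXII:452858-452878 for the snR86 site, chrXII:454062-454082, chrXII:452823-452843 and chrXII:452821-452841 for snR82 sites A, B and C, chrXII:456433-456453 and chrXII:456308-456328 for snR83 sites A and B, and chrXII:456532-456552 for the snR35 site. The rDNA is repeated, so hits cannot be assigned to a single copy. How reads that match several copies were handled is not stated in the sources used here.

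The snoRNA genes themselves lie on other chromosomes. In the R64 gene table, their symbols are SNR86, SNR82, SNR83 and SNR35. SNR86 is at chrXIII:762110-763113, SNR82 at chrVII:316788-317055, SNR83 at chrXIII:626349-626654 and SNR35 at chrXV:759326-759529, all annotated as snoRNA. The 4 genes are 1004, 268, 306 and 204 nucleotides long, so that snR86 is 4.92 times as long as snR35 and the longest of the 36 RNAs in the list. None of the 4 overlaps another gene of the table. The closest neighbor is ODC2, 72 nucleotides from snR35, and the other neighboring genes are at least 218 nucleotides away.

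All 4 snoRNAs were in the list of the Rbp95-HTP library and absent from that of the control. The lists give the number of reads per 100000 reads of the library. snR86 had 161 reads per 100000 with Rbp95-HTP and snR82 had 99, and both were at 0 in the control. snR83 had 89 reads per 100000 with Rbp95-HTP and snR35 had 83, against 0 in the control for both. Thus the guides of 25S sites stood above the guides of 18S sites per RNA, but snR82 exceeded snR83 by a factor of only 1.11. The order did not hold per 100 nucleotides of gene length, where snR35 had 40.7 and snR86 16.0. The 6 RNAs of the control list add up to its stated total of 8176, so that an RNA missing from it was taken as 0. Because the total number of reads is unknown, neither a fold change nor an interval is given for these values.

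A value above that of the control was the rule rather than the exception in these lists. The 4 snoRNAs were all higher with Rbp95-HTP, but so were 35 of the 36 RNAs, or 97.2%, the exception being the U3 snoRNA gene snR17A with 123 reads per 100000 in the Rbp95-HTP list against 8170 for the untagged cells. A higher value therefore does not separate the 4 guides from the other RNAs.

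**Figure D1:**
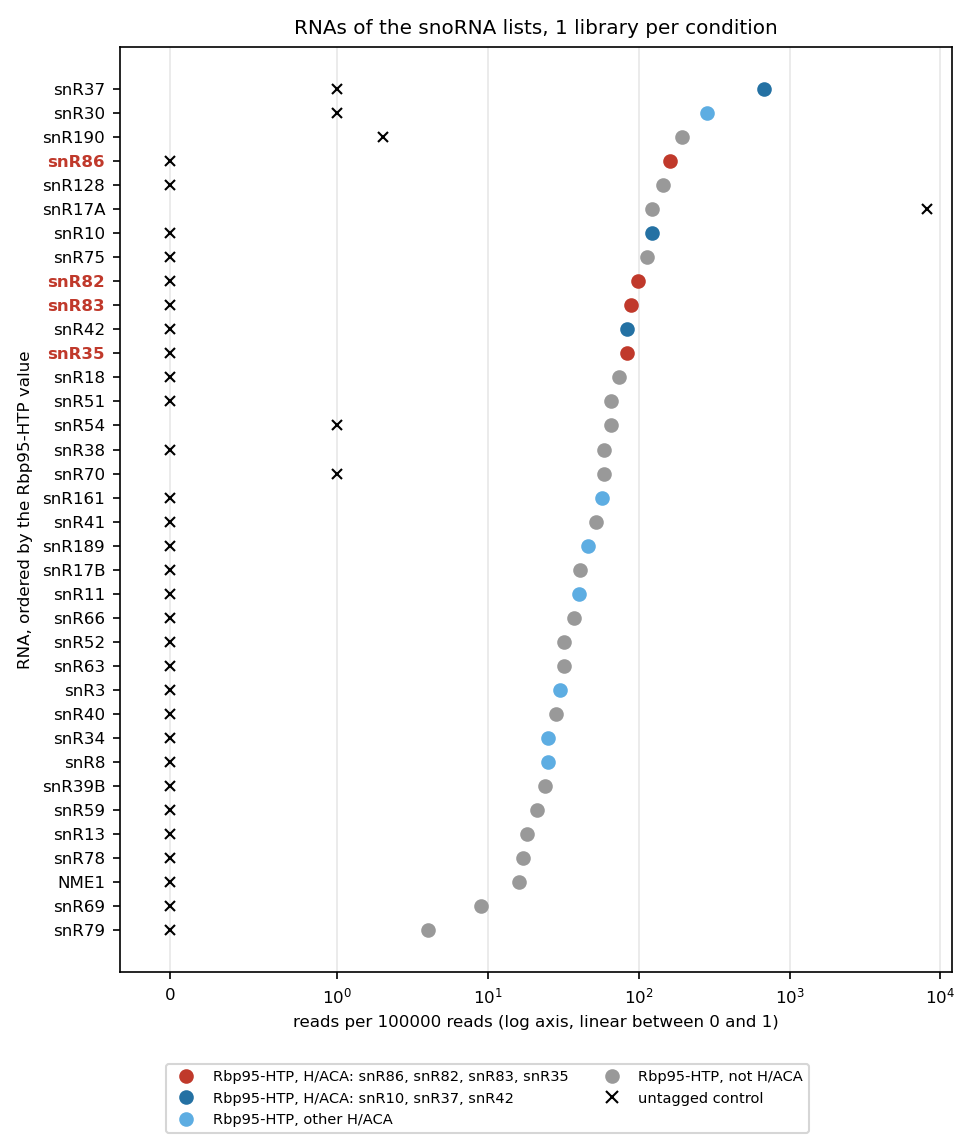
Reads per 100000 (horizontal log axis, linear between 0 and 1) of the 36 RNAs in the Rbp95-HTP library (filled circles, colored by class) and the untagged control (crosses), 1 library per condition, ordered by the Rbp95-HTP value. The 4 guides outside the peptidyl transferase center (red) lie between 83 and 161 with Rbp95-HTP and at 0 in the control.

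Together the 4 snoRNAs had 432 reads per 100000, which was 14.2% of the 3046 reads per 100000 on the list of the Rbp95-HTP library. They held ranks 4, 9, 10 and 12 of 36 per RNA, in the order snR86, snR82, snR83 and snR35. Their median of 94 reads per 100000 stood beside a median of 54.5 over all 36 RNAs. All 4 were thus in the upper part of the list. Directly above snR86 was snR190 with 193 reads per 100000, and directly below it snR128, the U14 snoRNA, with 145. snR82 followed snR75, a box C/D snoRNA, which had 113 reads per 100000. snR42, a guide for the peptidyl transferase center, came between snR83 and snR35 with 84 reads per 100000, and snR18 followed snR35 with 74. Since reads per RNA grow with the length of an RNA when reads are spread evenly, these ranks do not compare levels.

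Per length, the order of the 4 changed. snR35 had 40.7 reads per 100000 for each 100 nucleotides of gene length with Rbp95-HTP, snR82 had 36.9, snR83 29.1 and snR86 16.0, and all of these values were 0 in the control. On this scale snR86 was the lowest of the 4 instead of the highest, with a level 0.394 times that of snR35, whereas per RNA its value was 1.94 times that of snR35. Its rank fell to 26 of 36 per length, against 4 per RNA. The rank of snR35 was 13 per length and 12 per RNA, while snR82 was at 14 and snR83 at 18 per length. The level of snR86 per length was 1.03 times that of its lower neighbor snR11, an H/ACA guide for the 25S rRNA, and 0.821 times that of its upper neighbor snR78. The level of snR83 was 1.01 times that of snR40, a box C/D snoRNA, and 0.836 times that of snR52 above it. snR35 reached 0.946 times the level of snR66, and snR82 1.03 times that of snR70. Without replicates there is no spread with which to decide whether such neighbors differ.

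The median over the 4 was 33.0 reads per 100000 per 100 nucleotides, compared with 29.0 over all 36 RNAs, and 3 of the 4 were above the latter value. Per length, therefore, the 4 guides lay near the middle of the list. Reads in CRAC come from the crosslinked part of a molecule and need not be spread evenly, so that the value of a long RNA such as snR86 divided by its full length does not give the level of the part that was recovered. The lists give 1 value per RNA, and the positions of the reads or of altered nucleotides within the snoRNAs were not analysed here.

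**Figure D2:**
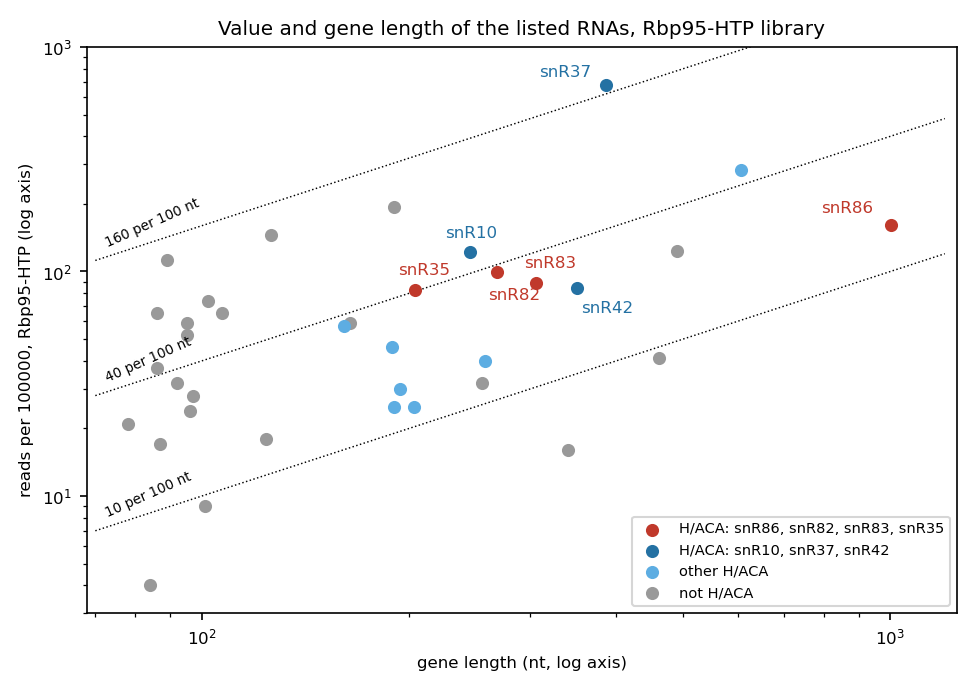
Reads per 100000 in the Rbp95-HTP library (vertical log axis) against gene length in nucleotides (horizontal log axis) for the 36 RNAs, colored by class. Dotted lines join equal values per 100 nucleotides, and snR86, with 161 reads per 100000 over 1004 nucleotides, lies further right and on a lower line than snR35, with 83 over 204 nucleotides.

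The rest of the H/ACA family gives the frame for these values. Of the 29 snoRNAs on a list of yeast H/ACA RNAs, all were found in the gene table and 14 were in the Rbp95-HTP list, so 10 others stood beside the 4. The other 15 were not listed with Rbp95-HTP. In the control 2 of the 29 were listed, snR37 and snR30, with 1 read per 100000 each. The 4 guides had a median of 94 reads per 100000 per RNA, and the 10 others had a median of 51.5 with a range of 25 to 674. Per 100 nucleotides the medians were 33.0 for the 4 and 24.1 for the 10 others. A total of 3 of the 10 others were above snR35 per length, and 4 were below snR86, so that both ends of the range of the 10 lay outside that of the 4. The 14 H/ACA snoRNAs together had 1819 reads per 100000, of which the 4 made up 23.7%.

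The 5 other listed guides of sites outside the center are snR11, snR3, snR8, snR189 and snR161, a set that was compared after its values were seen. The 4 guides had between 83 and 161 reads per 100000 per RNA with Rbp95-HTP, and the 5 others had between 25 and 57. These ranges did not overlap, while all 36 RNAs ranged from 4 to 674. The 4 genes are 204 to 1004 nucleotides long and the 5 others 161 to 258. Since the 4 were chosen with earlier results of these data known, the gap per RNA was not tested. Per 100 nucleotides the 4 guides ranged between 16.0 and 40.7 reads per 100000 and the 5 others between 13.2 and 35.4, with medians of 33.0 and 15.5, and these ranges overlapped. All 5 others were at 0 in the control.

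A set of guides with targets in the peptidyl transferase center, snR10, snR37 and snR42, is compared next. The 4 guides had 432 reads per 100000 in sum, and the 3 center guides had 880 with Rbp95-HTP, of which 674 were on snR37. Per 100 nucleotides the 4 guides ranged between 16.0 and 40.7 reads per 100000, and the 3 center guides between 23.9 and 174.6. The ranges overlapped, because snR42 with 23.9 per 100 nucleotides lay below snR35, snR82 and snR83. This center set is not complete, since snR34 also guides pseudouridines of the center and had 25 reads per 100000 with Rbp95-HTP. With snR34, added after its value was seen, the range of the center guides began at 12.3 per 100 nucleotides, below all 4 guides. With 1 library the difference between these sets could not be tested.

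The 35S pileups show whether rRNA near the target uridines was recovered in the same library as the guides. They do not link an rRNA read to a guide molecule, so whether a guide and its target were recovered together was not tested. These pileups give the hits, that is, the reads that cover a given nucleotide, over the 6858 nucleotides of this transcript. The upward steps of the hits add up to 97296 reads in the Rbp95-HTP pileup and 99994 in that of the control, which are lower bounds, near the cap of 100000 reads set by the authors. In the Rbp95-HTP library the highest peak, at nucleotide 6277 in helix H95, had 66665 hits, which lowers the share left for all other nucleotides. The control reads were stacked too, with a highest peak of 35268 hits at nucleotide 3997. Only 1289 of the 6858 nucleotides had hits in the control, against 3874 with Rbp95-HTP. The intervals for shares of reads at a target treat each read as an independent molecule and cover counting error only. It is not stated whether PCR duplicates were collapsed after the 16 PCR cycles.

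Hits of the Rbp95-HTP library covered 4 of the 7 target uridines, and the control had none at any of them. The covered uridines were 3 of the 4 in the 25S rRNA and 1 of the 3 in the 18S rRNA. For comparison, 64.6% of the 869 uridines of the 25S rRNA and 47.8% of the 510 of the 18S rRNA had hits with Rbp95-HTP, and 24.7% and 13.3% of them in the control. Coverage with Rbp95-HTP was thus common for uridines of both rRNAs.

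At the snR86 site, 198 hits were found with Rbp95-HTP, against 0 in the control. These hits correspond to 0.204% of the 35S reads of the Rbp95-HTP library (95% Wilson interval 0.177 to 0.234%). In the control, with 0 of 99994 reads at this site, 3 reads would make 0.0030%. All 198 Rbp95-HTP hits lay in a single stretch of 25 nucleotides, which ran from 19 nucleotides upstream to 5 nucleotides downstream of the target. The uridine was thus covered near the 3′ end of the recovered fragment. Reads of this stretch began at only 2 positions, with a net 111 reads 19 nucleotides upstream and 87 reads 15 nucleotides upstream. They ended 2, 4 and 5 nucleotides downstream of the target, with 32, 111 and 55 reads.

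snR82 sites B and C had 47 hits each with Rbp95-HTP, against 0 in the control, or 0.0483% of the Rbp95-HTP reads (95% Wilson interval 0.0363 to 0.0642%). These are the same 47 reads, which began 4 nucleotides upstream of site B. A further net 161 reads began at the nucleotide directly 3′ of site C, which raised the pileup to 209 hits within the following 2 nucleotides. Both uridines thus lay at the 5′ border of a stretch of 33 nucleotides, most reads of which did not include them. Between this stretch and that of the snR86 site there were 25 nucleotides without hits. At snR82 site A, in another part of the 25S rRNA, no hit was found in either library. With Rbp95-HTP the upper 95% Wilson limit was 0.0039%, and 3 of 97296 reads would make 0.0031%. The nearest Rbp95-HTP hits were 12 nucleotides upstream, where the pileup had 22 hits, and 23 nucleotides downstream, where it had 71.

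In the 18S rRNA, snR83 site A had 62 hits with Rbp95-HTP, against 0 in the control, and these correspond to 0.0637% of the Rbp95-HTP reads (95% Wilson interval 0.0497 to 0.0817%). All of the 62 reads began 3 nucleotides upstream of the target, and the stretch extended to 26 nucleotides downstream of it. A net 2 further reads began 9 nucleotides downstream of the target. From 24 nucleotides downstream on, only 2 hits were left. As at snR82 sites B and C, the target was near the 5′ border of the recovered fragment. snR83 site B and the snR35 site had no hits in either library, with the same upper Wilson limit of 0.0039% for Rbp95-HTP. The nearest Rbp95-HTP hits downstream were 12 nucleotides away from snR83 site B, with 53 hits, and 20 nucleotides away from the snR35 site, with 86 hits. Per length, the highest of the 4 guides, snR35, was one whose target was not covered. The lowest, snR86, was the one whose target had the most hits. Per RNA the order was the opposite, since snR86 was highest at 161 reads per 100000 and snR35 lowest at 83. The snoRNA values and the hits have different denominators, and with 4 guides no relation between them was computed.

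**Figure D3:**
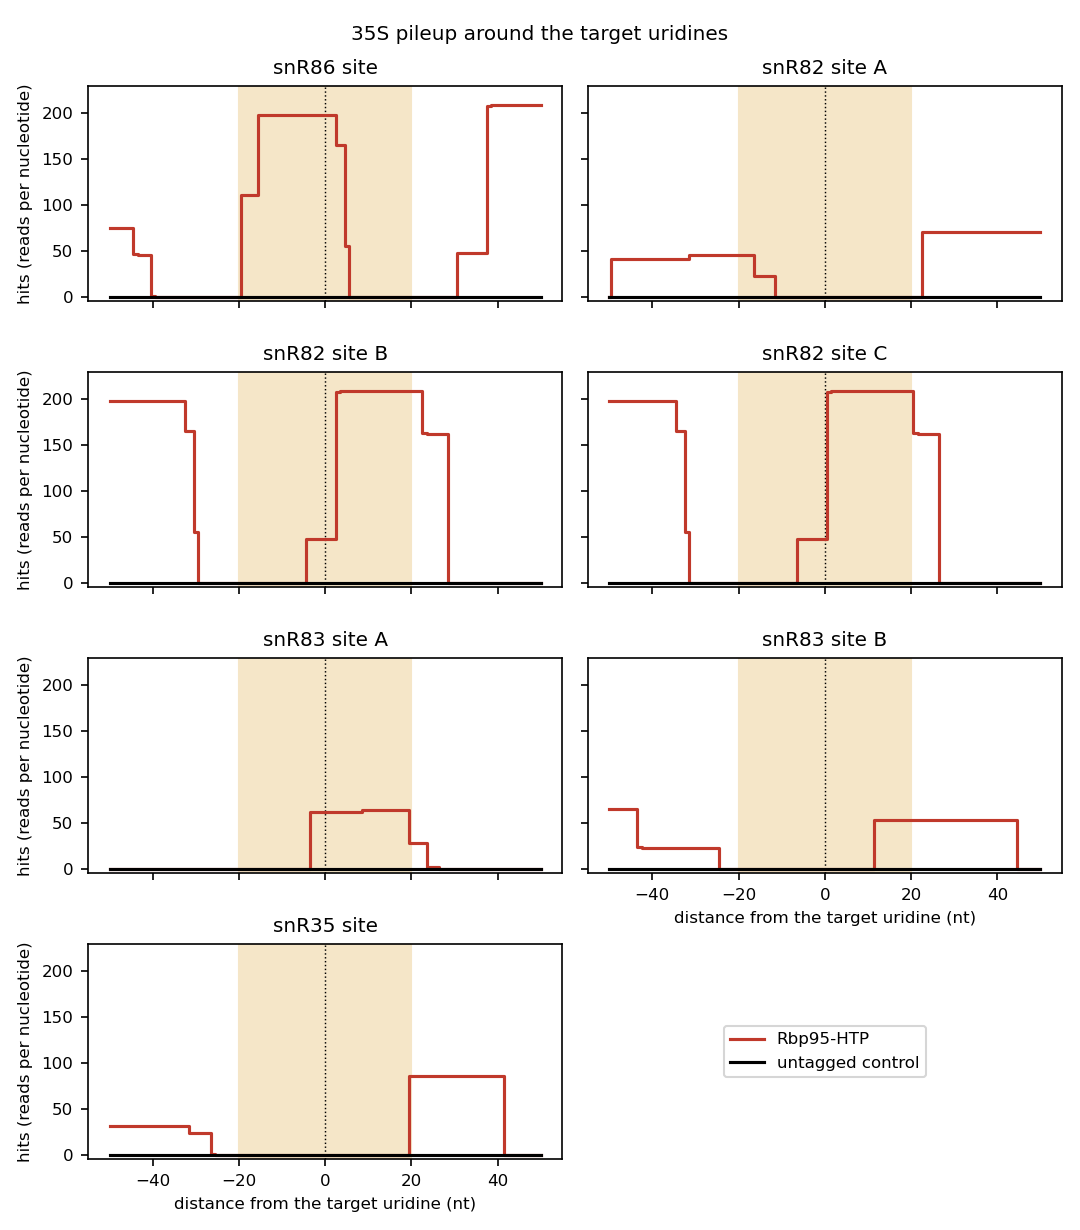
Hits per nucleotide of the 35S pre-rRNA (vertical axis, reads) within 50 nucleotides on either side of each target uridine (horizontal axis, distance in nucleotides, negative upstream), for Rbp95-HTP (red) and the untagged control (black), 1 library each, with the window of 20 nucleotides on either side shaded. The pileups consist of flat steps with few read ends, the target is covered at 4 of the 7 sites with 198, 47, 47 and 62 hits, and the control is at 0 throughout.

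Around each target, hits were averaged over a window of 41 nucleotides, 20 on either side. The mean was 107.2 hits at the snR86 site with Rbp95-HTP, 7.07, 99.8 and 110.0 hits at snR82 sites A, B and C, 36.0 and 11.6 hits at snR83 sites A and B and 2.10 hits at the snR35 site. In the control all 7 windows were empty, and no control hit was found within 50 nucleotides of any target. An empty control window was common, since 61.0% of the windows around uridines of the 25S rRNA and 80.2% of those of the 18S rRNA had no control hit. Because the control hits were confined to few nucleotides, the ratios that follow are not a measure of enrichment at the targets. The highest nucleotide of the window had a share of reads at least 71.6-fold higher with Rbp95-HTP at snR82 sites B and C, at least 67.8-fold at the snR86 site, and at least 15.4-fold at snR82 site A, each set against a floor of 3 control reads. It was at least 21.9-fold and 18.2-fold higher at snR83 sites A and B and at least 29.5-fold higher at the snR35 site, on the same scale. In the snR35 window a single nucleotide, at its outer border, had hits.

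All 7 windows were at least 2-fold higher with Rbp95-HTP by this measure. So were 76.8% of the windows around all uridines of the 25S rRNA and 76.9% of those of the 18S rRNA. Since windows of neighboring sites overlap, with 39 nucleotides shared by snR82 sites B and C, the 7 do not count as 7 separate observations.

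Set against the other uridines of the same rRNA, the target windows were ordinary in height. The median of the window means with Rbp95-HTP was 85.1 hits in the 25S rRNA and 29.1 hits in the 18S rRNA. The window of the snR86 site was above 57.7% of the windows of the 25S rRNA, those of snR82 sites B and C were above 55.4% and 58.9%, and that of snR82 site A was above 14.5%. Among the windows of the 18S rRNA, snR83 site A was above 57.8%, its site B above 34.7% and the snR35 site above 24.1%. Thus 4 of the 7 windows were above the median of their rRNA and 3 were below it. Together the 7 windows cover 242 different nucleotides, or 3.53% of the 35S pre-rRNA, and held 0.384% of all 35S hits in the Rbp95-HTP library, against none of the 4024737 hits in the control.

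**Figure D4:**
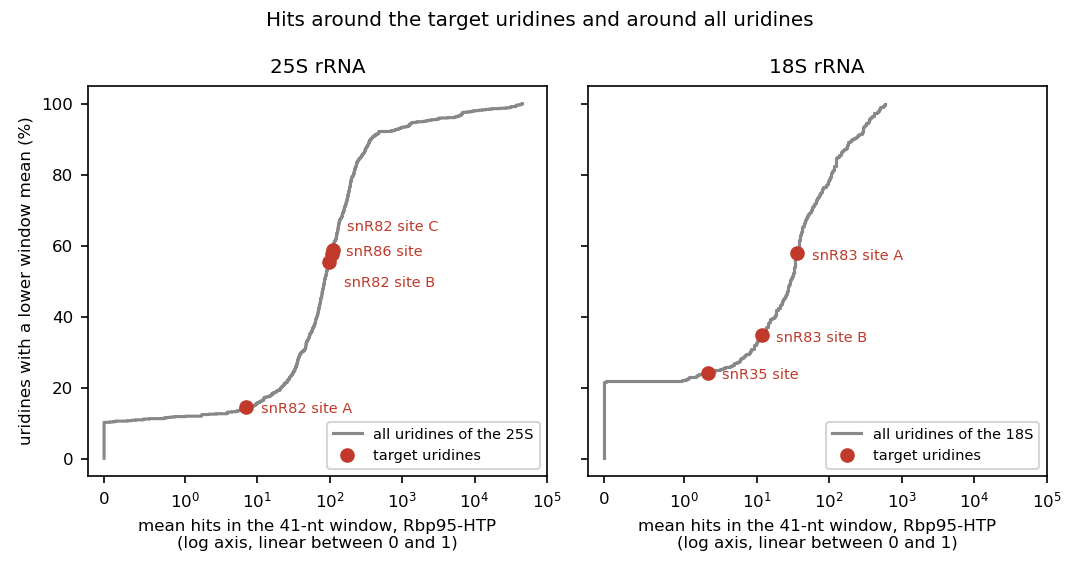
Share of uridines whose 41-nucleotide window has a lower mean than the value shown (vertical axis, percent) against the mean hits of the window with Rbp95-HTP (horizontal log axis, linear between 0 and 1), for the 869 uridines of the 25S rRNA (left) and the 510 of the 18S rRNA (right) as gray curves, with the target uridines as red points. The targets of snR86, sites B and C of snR82 and site A of snR83 lie between 55.4% and 58.9%, and the other 3 lie between 14.5% and 34.7%.

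The targets of snR10, snR37 and snR42 stand closer to the peak at helix H95, between 51 and 103 nucleotides upstream of it, while the 7 target uridines described here are at least 675 nucleotides upstream. The windows of the 7 sites had between 2.10 and 110.0 mean hits with Rbp95-HTP, and those of the snR37, snR10 and snR42 targets had 477.0, 224.8 and 52.6. The snR37 target had 941 hits with Rbp95-HTP and the snR10 target 44, both with 0 in the control, and the snR42 target had 0 with Rbp95-HTP, against 1 in the control. The windows of neighboring center targets overlap each other. The stretch with 941 hits over the snR37 target begins 13 nucleotides downstream of the snR10 target, inside its window, and its end lies in the snR42 window. The 3 window means are therefore not separate values. Within 50 nucleotides of the snR10 target the control reached 6774 hits.

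Substitutions and deletions in the reads, which can mark a crosslinked nucleotide in CRAC, were few around the targets. In the 242 nucleotides of the windows, 28 substitutions and 1 deletion were found among 11232 hits with Rbp95-HTP, an altered share of 0.258% (95% Wilson interval 0.180 to 0.371%). Over the 35S pre-rRNA outside the highest peak and the 100 nucleotides on either side of it, 0.573% of the hits were altered. The control had no hits in these windows and therefore gives no level for comparison. A read is counted at each nucleotide it covers, so the hits behind these shares are not independent and the intervals may be too narrow.

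None of the target uridines was altered in any read. The 4 covered targets had 354 hits in sum, in which 3 reads would make 0.847%. This sum counts the 47 reads shared by snR82 sites B and C at both sites, so the share would be higher for distinct reads. At the snR86 site alone, with 198 hits, 3 reads would make 1.52%, and at snR83 site A, with 62 hits, they would make 4.84%. The windows of the snR86 site and of snR82 sites B and C had 10 altered hits each, with 0.228%, 0.244% and 0.222% of the hits. Those of snR82 sites B and C are the same 10 altered hits, since their windows overlap. The altered share was 0.339% in the window of snR83 site A, with 5 altered hits, and 0.419% in that of its site B, with 2. At snR82 site A it was 0.690%, or 2 of 290 hits, with an interval of 0.189 to 2.48% that includes the 0.573% found elsewhere, and in the snR35 window none of 86 hits was altered. The highest altered share of a single nucleotide was 4.55%, 12 nucleotides upstream of snR82 site A, and it corresponds to 1 read among 22 hits. At no nucleotide of the windows were more than 3 reads altered. The highest number was 3 of 209 hits, or 1.44%, 12 nucleotides downstream of snR82 site B.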

How the data were processed

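CRAC libraries of Rbp95-HTP and untagged control cells, 1 each, were compared, with conditions taken from the labels. The authors trimmed and filtered the reads (Flexbar), mapped them to the yeast genome, R64 in the submitters' processing notes (Novoalign), and counted them (pyCRAC). Versions and the treatment of duplicates are not given in the sources used here. The snoRNA values as deposited are scores, reads per 100000 for each RNA, and were not treated as counts. The deposited 35S pileups hold counts of hits, substitutions and deletions per nucleotide, limited by the authors to 100000 reads. The class tables were not used.

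snoRNA values were divided by gene length from the R64 gene table, in which all 36 names were found. Windows of 20 nucleotides on either side of the targets were compared with those of every T of the 18S and 25S rRNA, and a window was called when its highest hits, as a share of 35S reads, were at least 2-fold higher with Rbp95-HTP, with a floor of 3 control reads. Wilson intervals (95%) were computed with scipy 1.17.1 in Python 3.11.15, and figures were drawn with matplotlib 3.10.9. No test between libraries was possible. The pileup steps were checked on 200 simulated pileups of single isolated stacks of reads and recovered all of them. Overlapping stacks, as in the deposited pileups, were not simulated.

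It was planned to take the target positions from an annotation or from guide sequences. Neither was in the tables used, so established assignments were taken and each was checked to be a T. The members, the H/ACA list and the targets were chosen with earlier results of these data known. Named RNAs are the 4 guides, their neighbors in rank, the center guides snR10, snR37 and snR42, and snR17A. After values were seen, snR30, snR34 and the 5 other guides of sites outside the center were added. Alternatives concerned denominators, length scaling, window width and kind of alteration.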

Additional observations from a re-analysis of the deposited data

How the results depend on the processing

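The share of the 4 guides in the snoRNA list of the Rbp95-HTP library was 14.2%. It was 14.8% without snR17A in the sum, 14.8% with the control subtracted, 23.7% among H/ACA snoRNAs alone and, as an alternative chosen after seeing the data, 8.90% without snR86. The order of snR86 and snR35 turned with the scale, with a log2 ratio of -1.34 per 100 nucleotides and 0.96 per RNA. It turned because snR86 is 4.92 times as long as snR35 but had only 1.94 times its reads. The 7 windows held 0.384% of the 35S hits with Rbp95-HTP. This became 0.0121% for the target nucleotides alone, 0.214% and 0.712% with 10 and 50 nucleotides on either side, and 1.23% when the highest peak was left out of the total. Without the snR86 site and snR82 sites B and C, an alternative chosen after seeing the data, it was 0.0797%, so most of these hits lie at the cluster of 3 sites. The control had 0 hits under each of these settings. The altered share was 0.258%, 0.249% for substitutions alone and 0% at the target nucleotides. There 354 hits limit what can be seen, and the reads shared by snR82 sites B and C count at both sites. No paired analysis was possible because each condition has 1 library. The depth behind the snoRNA values is unknown, and few distinct read ends make up the pileups near the targets, so the intervals may be too narrow.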
